A study of Homo sapiens with 16 samples.

Results

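A set of 10 genes for actins and for proteins that stiffen and pull the actin filament was examined: ACTB, ACTG1, ACTA2, TAGLN, MYL6, MYL9, TPM1, TPM2, TPM4 and MYH9. They were chosen by symbol, from a list drawn up with the measured changes of both tables known, and all 10 were found among the 60669 genes of both deposited tables. The cells were HMC3, a human microglial cell line, unaltered (WT) or labelled as METTL3 KO, with no other allele or agent named. METTL3 is the catalytic subunit of the enzyme that writes N6-methyladenosine (m6A) on RNA. Poly(A) RNA was sequenced by Smart-seq2 in 5 libraries per genotype, and RNA depleted of ribosomal RNA was sequenced with a directional kit in 3 libraries per genotype. The labels do not say how the knockout was made, whether it is 1 clone, or whether replicates came from separate cultures, so p-values measure the spread between these samples, which may be technical.

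Actin monomers assemble into filaments that give a cell its shape and carry its movement. Non-muscle myosin II, built from heavy chains such as MYH9 and from essential and regulatory light chains such as MYL6 and MYL9, slides these filaments past each other. Tropomyosins lie along the filament and decide which other proteins can reach it, and transgelin (TAGLN) binds and bundles filaments. Many of these genes are classic targets of serum response factor (SRF), which binds a DNA element called the CArG box and is held in check through its cofactors of the MRTF family, which bind free actin.

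The rRNA-depleted libraries were used as TPM, a unit in which reads are divided by gene length and scaled to the same total in every library. Whole reads recovered from the TPM gave depths of 266130 to 487243 reads in the WT libraries and 512597 to 1267177 reads in the knockout-labelled ones. Knockout-labelled libraries 1 and 2 did not differ detectably beyond sampling noise (chi-square 1.02 per degree of freedom over 10120 genes, p = 0.065), while the other pairs of a label did (1.16 to 1.53), so both were averaged and counted as 1 sample, which left 3 WT samples and 2 knockout-labelled ones. METTL3 mRNA was not lower in the libraries labelled knockout, with 25.4 to 31.6 TPM in WT and 39.2 to 42.7 TPM in the others, so mRNA does not check the label. Of 10 microglia and macrophage markers, 8 (AIF1, CX3CR1, P2RY12, TMEM119, PTPRC, ITGAM, SPI1 and TYROBP) were listed at 0 in all 6 libraries, and the list summed to at most 2.95 TPM in any library. Fibroblast markers summed to 10715 to 13194 TPM in WT, led by COL1A1, and to 3350 to 3507 TPM in the knockout-labelled libraries, led by VIM. Of the 4 tested with limma, COL1A1 and COL1A2 were lower and VIM (4.71-fold) and THY1 (2.07-fold) higher. Smooth muscle and pericyte markers summed to 359 to 388 and 270.0 to 315 TPM, with MYH11 listed at 0 throughout. The part of these cell type markers in the results below was not tested.

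The comparison asks how the mRNAs of the contractile filament differ between WT and METTL3 KO cells. In poly(A) RNA, 5 of the 10 genes were lower in the authors' deposited table at an adjusted p under 0.05 and none was higher: TAGLN, MYL9, MYL6, ACTB and ACTG1. In rRNA-depleted RNA, ACTG1 rose, TPM2, MYH9 and MYL6 fell, and the other 6 did not pass the limma threshold. In bulk RNA, fewer cells of a type and less RNA per cell cannot be told apart. MYL6 was the 1 gene past the threshold in the same direction in both library types, and ACTG1 passed in opposite directions. Since the list was drawn up with these changes known, the counts are descriptions and support nothing by themselves.

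Read against all genes, the background was high. In the rRNA-depleted comparison 35.3% of 14789 tested genes passed, 22.9% upward and 12.4% downward, and among the 1425 genes averaging 100 reads or more, a depth that 9 of the 10 genes reach, 69.8% passed, 48.8% upward and 21.0% downward. Of 14009 genes with an adjusted p in the authors' deposited table, 19.9% passed and 10.3% passed downward. Of the 1813 of these averaging 200 normalized counts or more, 45.9% passed and 24.5% passed downward. All 10 genes passed the filter of at least 1 TPM in at least 3 libraries, and the 2 sample groups did not overlap for 6 of them, against 62.7% of all tested genes and 86.2% of those averaging 100 reads or more. The median log2 change of the 10 was 0.15 in the rRNA-depleted libraries, where the median of all tested genes was 0.41, and -0.25 in the authors' deposited table, where it was 0.02. Because median ratio scaling moved the median of all genes from 0.41 to 0.11, changes are also given relative to the median. The table does not name its numerator. Positive values were read as higher in the knockout, since 91.5% of the 177 genes past both thresholds that differed by 1 or more on the log2 scale in both then shared a sign with the rRNA-depleted comparison, and every poly(A) direction would turn if that were wrong.

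**Figure D1:**
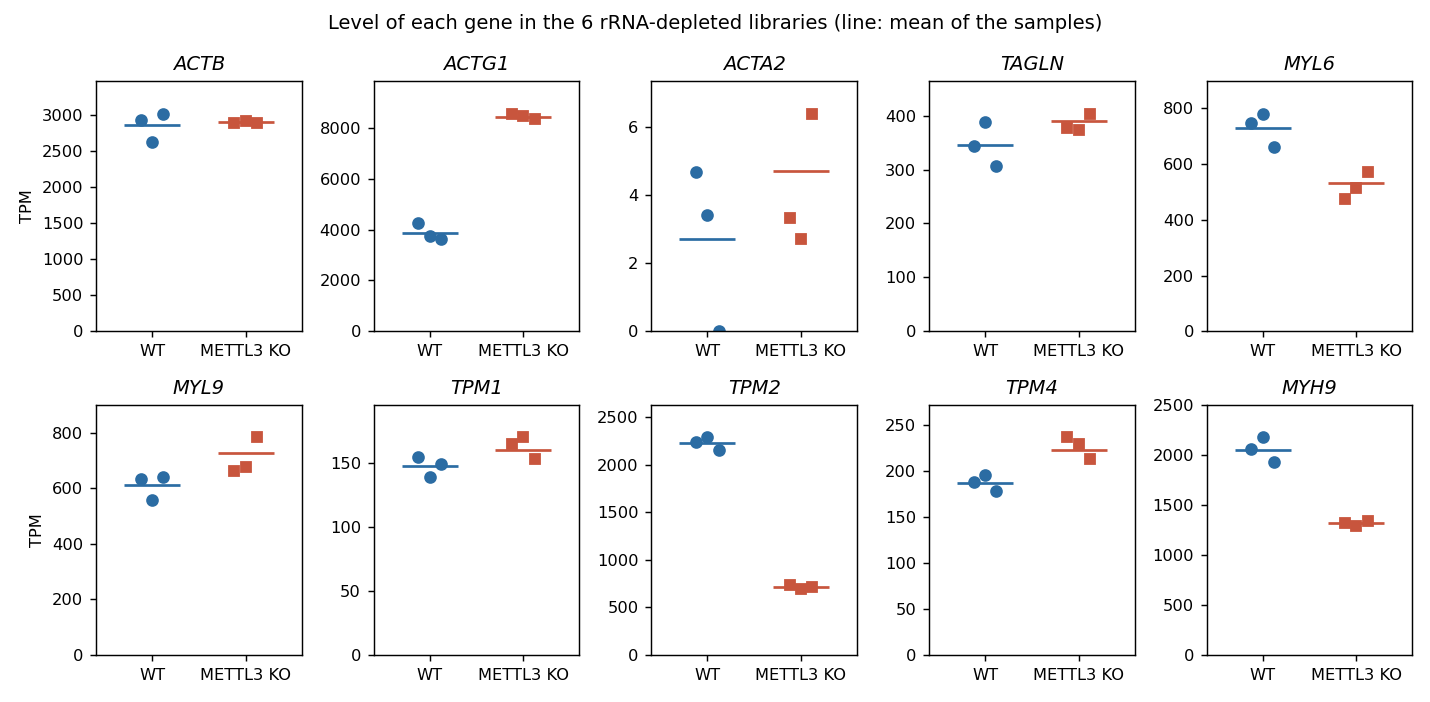
Level of each gene in the rRNA-depleted libraries, in TPM on linear axes from 0, with 3 WT libraries (circles) and 3 knockout-labelled libraries (squares); the line is the mean of the samples, with knockout-labelled libraries 1 and 2 counted as 1. ACTG1 is higher and TPM2, MYH9 and MYL6 are lower in all 3 knockout-labelled libraries, and ACTA2 never exceeds 6.40 TPM.

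The 2 cytoplasmic actins come first because their coding sequences are much alike. Over the 1128 coding bases of GENCODE 29 transcripts ACTB-201 and ACTG1-201, 1029 bases (91.2%) were the same, and 94 of the 99 differences lay at the last base of a codon. The first 150 coding bases are shown because, within the coding sequence, such scattered single-base differences tell reads of the 2 genes apart. The rest of the 2 transcripts was not aligned. Capitals mark the 23 positions that differ.
ACTB: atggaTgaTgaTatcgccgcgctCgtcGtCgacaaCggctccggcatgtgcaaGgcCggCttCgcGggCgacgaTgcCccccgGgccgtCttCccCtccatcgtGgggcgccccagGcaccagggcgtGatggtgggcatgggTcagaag
ACTG1: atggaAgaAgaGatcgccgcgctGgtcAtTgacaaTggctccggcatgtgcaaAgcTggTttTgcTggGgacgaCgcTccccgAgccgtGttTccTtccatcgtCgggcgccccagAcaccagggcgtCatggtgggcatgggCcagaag
Of the 50-base windows of the longest coding ACTB transcript, 10.3% also occur in a transcript of another gene, most often the processed copy ACTBP2, and for ACTG1 the share was 3.58%. The processed copies of ACTB together held at most 18.4 TPM in a library and those of ACTG1 at most 19.8 TPM, so few reads were assigned to them, although how reads that fit several places were counted is not stated.

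ACTB (ENSG00000075624; GRCh38 chromosome 7, 5527147 to 5563784, minus strand) encodes beta-actin, the cytoplasmic actin most used as a loading reference. In library order, here and below, its level was 2930.2, 2628 and 3025 TPM in the 3 WT libraries and 2891, 2929 and 2900 TPM in the 3 labelled knockout. The knockout-labelled values lay inside the range of the WT values. The log2 change was 0.02 (SE 0.12, limma adjusted p 0.890), or -0.39 relative to the median of all genes. Its 95% interval of -0.27 to 0.32 does not reach the value in poly(A) RNA, where the authors' deposited table gave a log2 fold change of -0.60 (SE 0.07, adjusted p 4.95e-16). The 2 comparisons are centred differently, with medians of all genes of 0.41 and 0.02. Relative to these medians the 2 ACTB values lie closer, so this separation rests on the scaling. The sign in rRNA-depleted RNA turned with the scaling, to -0.33 with median ratio scaling (limma adjusted p 0.113) and to -0.26 with voom on recovered reads, where it passed (limma adjusted p 1.51e-05).

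ACTG1 (ENSG00000184009; GRCh38 chromosome 17, 81509971 to 81523847, minus strand) encodes gamma-actin, the other cytoplasmic actin. Its level was 4248, 3759 and 3647 TPM in the 3 WT libraries and 8565, 8472 and 8368 TPM in the 3 labelled knockout. Every knockout-labelled library was above every WT library. ACTG1 rose 2.18-fold, or 1.12 on the log2 scale (SE 0.14, limma adjusted p 0.0042), or 0.71 relative to the median, with means of 3885 ± 320 TPM in WT (SD, n = 3) and 8443 ± 107 TPM in the others (SD, n = 2). The size moved with the scaling, to 0.77 with median ratio scaling and 1.91 with quantile normalization, and ACTG1 passed under both. Without knockout-labelled library 3, which leaves 1 sample in that group, it stood at 1.14 on the log2 scale (limma adjusted p 0.104). In poly(A) RNA the authors' deposited table gave ACTG1 a log2 fold change of -0.35 (SE 0.08, adjusted p 0.00014).

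The ratio of the 2 actins within a library is not changed by multiplying all its values by 1 common factor. Quantile normalization and removal of the GC trend are not of that kind. ACTG1 over ACTB was 1.45, 1.43 and 1.21 in the 3 WT libraries and 2.96, 2.89 and 2.89 in the 3 labelled knockout. ACTG1 thus made up 54.7% to 59.1% of actin TPM in WT and 74.2% to 74.7% in the knockout-labelled libraries, and the sum of ACTB, ACTG1 and ACTA2 was 6749 ± 402 TPM (SD, n = 3) against 11353 ± 112 TPM (SD, n = 2). A changed ratio shows unequal change and not which gene stayed constant. Both actins were lower in the authors' deposited table, ACTB at -0.60 and ACTG1 at -0.35 on the log2 scale.

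ACTA2 (ENSG00000107796; GRCh38 chromosome 10, 88935074 to 88991339, minus strand) encodes smooth muscle alpha-actin, a marker of smooth muscle and of contractile fibroblasts. Its level was 4.68, 3.42 and 0 TPM in the 3 WT libraries and 3.32, 2.71 and 6.40 TPM in the 3 labelled knockout, which stand for 2, 1, 0, 3, 3 and 3 reads. Both groups were at or under 3 reads in every library, so no fold is given. A count of 0 in WT library 3 allows up to 6.04 TPM, and the limit covers counting error only. The authors' deposited table gave ACTA2 a mean normalized count of 5.58 and a log2 fold change of 0.91 (SE 0.54, adjusted p 0.252). Alpha-actin mRNA was near the limit of detection in both library types, and a difference was not detectable at this depth.

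**Figure D2:**
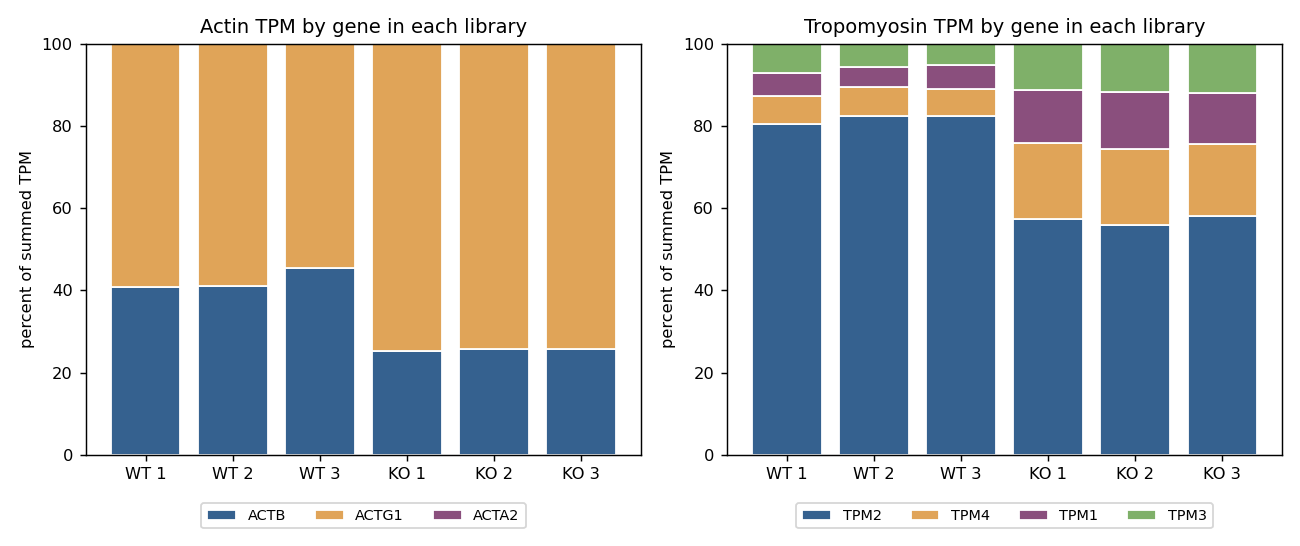
Share of each gene in the summed TPM of the actins (left) and of the 4 tropomyosin genes (right), in percent, for the 3 WT libraries and the 3 knockout-labelled (KO) ones. ACTA2 is at most 0.0652% and not visible; TPM2 holds 80.6% to 82.4% of tropomyosin TPM in WT and 55.9% to 58.2% in the knockout-labelled libraries.

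Among the tropomyosins, TPM2 was the 1 that passed. TPM2 (ENSG00000198467; GRCh38 chromosome 9, 35681992 to 35690121, minus strand) encodes beta-tropomyosin, found in muscle and in the stress fibres of other cells. Its level was 2240.2, 2286 and 2158 TPM in the 3 WT libraries and 736, 688 and 712 TPM in the 3 labelled knockout. The groups were far apart compared with the spread within them. TPM2 fell 3.13-fold, or -1.64 on the log2 scale (SE 0.09, limma adjusted p 0.00105), or -2.06 relative to the median. It passed under all 16 alternatives run, with log2 changes of -2.00 to -1.13. In poly(A) RNA the authors' deposited table gave TPM2 a log2 fold change of -0.11 (SE 0.08, adjusted p 0.390), with an interval of -0.28 to 0.05 that does not reach the value in rRNA-depleted RNA. The difference between the library types was not tested.

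TPM1 and TPM4 did not pass in either library type. TPM1 (ENSG00000140416; GRCh38 chromosome 15, 63042632 to 63071915, plus strand), which encodes alpha-tropomyosin with many splice forms, had 155, 139 and 150 TPM in the 3 WT libraries and 165, 170 and 154 TPM in the 3 labelled knockout. The groups overlapped, and the log2 change was 0.12 (SE 0.11, limma adjusted p 0.436), with a 95% interval of -0.16 to 0.39. TPM4 (ENSG00000167460; GRCh38 chromosome 19, 16067021 to 16103005, plus strand), which encodes a non-muscle tropomyosin of stress fibres, had 188, 195 and 178 TPM in the 3 WT libraries and 236, 229 and 213 TPM in the 3 labelled knockout. The TPM4 groups did not overlap, but its log2 change of 0.25 (SE 0.10, limma adjusted p 0.115) turned to -0.16 relative to the median and to -0.10 with median ratio scaling. In the authors' deposited table TPM1 had a log2 fold change of -0.06 (SE 0.06, adjusted p 0.503) and TPM4 one of 0.13 (SE 0.06, adjusted p 0.128). Of the 50-base windows of the TPM4 transcript 23.1% also occur in another annotated gene, mostly AC098614.1, so TPM4 reads may be split.

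TPM2 was the most abundant tropomyosin by TPM in both groups, and its share of the family differed. TPM4 held 6.87% ± 0.156 (SD, n = 3) of tropomyosin TPM in WT and 17.98% ± 0.762 (SD, n = 2) in the knockout-labelled samples, as shares of a sum in which TPM2 fell. The mean share of TPM1 was 5.43% and 12.95%, and that of TPM3, the remaining family member, 5.91% and 11.7%. The summed tropomyosin TPM was 2725 ± 89.7 (SD, n = 3) in WT and 1240.0 ± 23.6 (SD, n = 2) in the knockout-labelled samples. Per unit of actin TPM, tropomyosin was 0.405 ± 0.0256 (SD, n = 3) in WT and 0.109 ± 0.000999 (SD, n = 2) in the knockout-labelled samples. These shares are per length: recovered reads fitted TPM values divided by the union of all exons, which for TPM1 is 12876 bases against 3957 in its longest coding transcript, so the choice of length lowers the TPM of TPM1 more than that of TPM2 (3248 against 1392 bases). The shares and the ratio to actin hold for rRNA-depleted RNA only. For poly(A) RNA the log2 fold changes were -0.06 (TPM1), -0.11 (TPM2), -0.12 (TPM3) and 0.13 (TPM4), none past the threshold. Both actins were lower there, at -0.60 (ACTB) and -0.35 (ACTG1), so tropomyosin did not fall relative to actin in poly(A) RNA.

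Of the myosin II subunits, the heavy chain MYH9 (ENSG00000100345; GRCh38 chromosome 22, 36281277 to 36388067, minus strand) had 2063, 2180 and 1931 TPM in the 3 WT libraries and 1324, 1287 and 1342 TPM in the 3 labelled knockout. Every knockout-labelled library was below every WT library. The log2 change of MYH9 was -0.63 (SE 0.11, limma adjusted p 0.00976), or -1.05 relative to the median. It did not pass with the GC trend removed (-0.18, limma adjusted p 0.234) or without knockout-labelled library 3 (-0.65, limma adjusted p 0.102). The authors' deposited table gave MYH9 a log2 fold change of -0.15 (SE 0.10, adjusted p 0.343), so it did not pass in poly(A) RNA.

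MYL6 (ENSG00000092841; GRCh38 chromosome 12, 56158161 to 56163496, plus strand) encodes the essential light chain, which holds the lever arm of the myosin head. Its level was 748, 781 and 661 TPM in the 3 WT libraries and 474, 513 and 572 TPM in the 3 labelled knockout. The groups did not overlap, and the log2 change was -0.46 (SE 0.12, limma adjusted p 0.0400), or -0.87 relative to the median. With the GC trend removed the log2 change was 0.01, and without WT library 1, WT library 2 or knockout-labelled library 3 the limma adjusted p was 0.0969, 0.0788 and 0.113, and it was 0.0685 without the filter on low values and 0.0762 with quantile normalization. The authors' deposited table gave MYL6 a log2 fold change of -0.64 (SE 0.10, adjusted p 2.85e-08), which is close to the value in the other library type. Of its windows 2.95% are shared with MYL6B, a related light chain gene.

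MYL9 (ENSG00000101335; GRCh38 chromosome 20, 36541484 to 36551447, plus strand) encodes a regulatory light chain whose phosphorylation switches contraction on. Its level was 633, 558 and 639 TPM in the 3 WT libraries and 663, 675 and 783 TPM in the 3 labelled knockout. The groups did not overlap, by a narrow margin, and the log2 change of 0.25 (SE 0.12, limma adjusted p 0.168) was -0.16 relative to the median and -0.10 with median ratio scaling. For poly(A) RNA the authors' deposited table put MYL9 lower, at -0.84 on the log2 scale (SE 0.08, adjusted p 8.71e-22), outside the interval of -0.06 to 0.56 in rRNA-depleted RNA. The ratio of MYL9 to MYL6 within a library was 0.845, 0.714 and 0.966 in the 3 WT libraries and 1.40, 1.32 and 1.37 in the 3 labelled knockout.

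TAGLN (ENSG00000149591; GRCh38 chromosome 11, 117199321 to 117204782, plus strand) encodes transgelin, also called SM22 alpha, an early marker of the contractile smooth muscle state. Its level was 344, 388 and 307 TPM in the 3 WT libraries and 378, 373 and 404 TPM in the 3 labelled knockout, from 147 to 534 reads. The groups overlapped, and the log2 change was 0.18 (SE 0.13, limma adjusted p 0.339), or -0.24 relative to the median. For poly(A) RNA the authors' deposited table gave TAGLN the largest fall of the 10 genes, 2.26-fold or -1.18 on the log2 scale (SE 0.10, adjusted p 1.04e-31). That value is outside the 95% interval of -0.15 to 0.50 from the rRNA-depleted libraries, and the difference between library types was not tested. With the GC trend removed TAGLN passed upward, at 0.64 (limma adjusted p 0.0166).

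**Figure D3:**
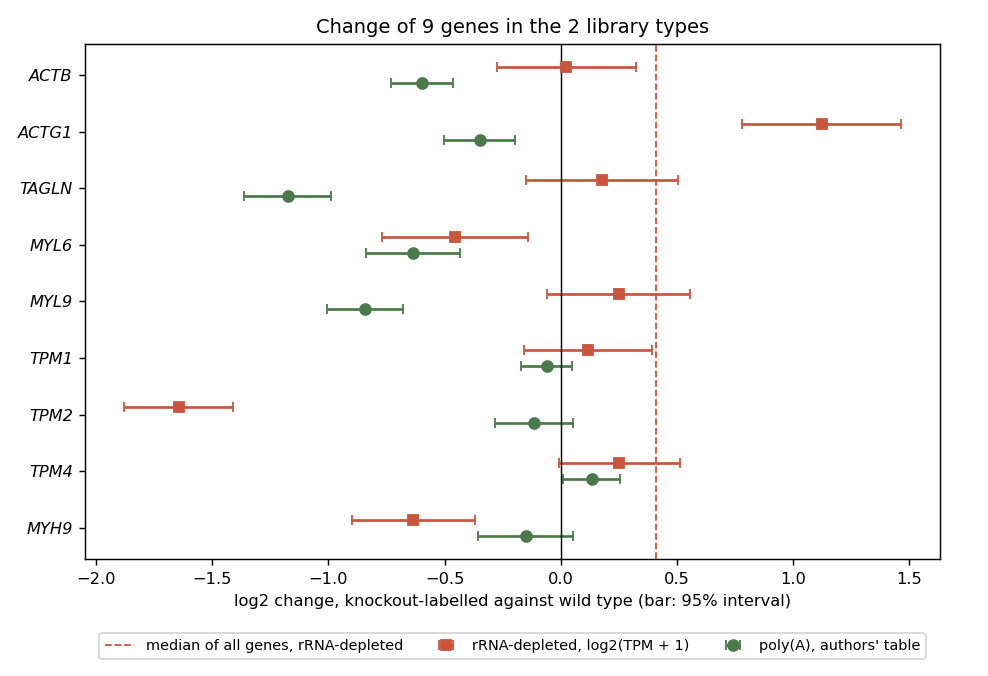
Log2 change of 9 genes, knockout-labelled against wild type, in rRNA-depleted RNA (squares, limma on log2(TPM + 1)) and in poly(A) RNA (circles, authors' deposited table); bars are 95% intervals and the dashed line is the median of all tested genes in rRNA-depleted RNA, 0.41. As drawn, the intervals are apart for ACTB, ACTG1, TAGLN, MYL9, TPM2 and MYH9, and overlap for MYL6, TPM1 and TPM4. They are not shifted for the different medians of all genes, 0.41 and 0.02, and for ACTB the separation rests on that scaling. ACTA2 is left out because it has 3 reads or fewer.

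By TPM the order of the genes in WT was ACTG1, ACTB, TPM2, MYH9, MYL6, MYL9, TAGLN, TPM4, TPM1 and ACTA2. The neighbours TPM2 (2158 to 2286 TPM) and MYH9 (1931 to 2180 TPM) overlapped. In the knockout-labelled libraries the order was ACTG1, ACTB, MYH9, MYL9, TPM2, MYL6, TAGLN, TPM4, TPM1 and ACTA2, and there TPM2 (688 to 736 TPM) overlapped with MYL9 (663 to 783 TPM). The 10 genes together made up 1.27% to 1.36% of a WT library's TPM and 1.53% to 1.55% of a knockout-labelled one.

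The genes also differ in base composition, along which the whole rRNA-depleted comparison tilted. Across 14669 tested genes the Spearman correlation of log2 change with the GC content of the longest coding transcript was -0.37, and over the 9 contractile genes with more than 3 reads it was -0.17. Both are descriptions, over genes that share the same libraries. The median log2 change fell from 1.23 in the lowest of 10 bins of GC content to -0.44 in the highest. TPM2 (60.4% GC), MYL9 (60.5%), MYH9 (58.6%) and ACTG1 (57.8%) have much the same GC content, and their log2 changes were -1.64, 0.25, -0.63 and 1.12. With the trend removed from each library ACTG1 and TPM2 kept their direction and their side of the threshold, MYH9 and MYL6 did not pass, and ACTB (0.49), TAGLN (0.64) and MYL9 (0.77) passed upward, although relative to the median of all genes, 0.47 in that fit, these 3 stood at 0.02, 0.17 and 0.30.

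**Figure D4:**
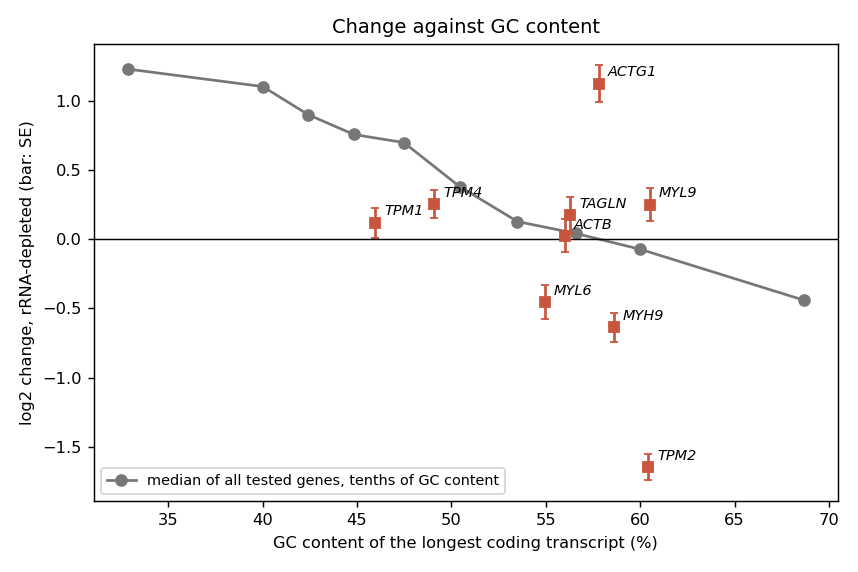
Log2 change in rRNA-depleted RNA (y axis, bars are SE) against GC content of the longest coding transcript in percent (x axis) for 9 genes (squares), with the median of all tested genes in 10 bins of GC content (grey line). ACTG1 and MYL9 lie above the line, and TPM2, MYH9, MYL6, TPM1 and TPM4 below it. TAGLN is slightly above the line and ACTB close to it.

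Because METTL3 methylates adenosines mostly within short motifs, GGACT being the most common form, its occurrences on the transcript strand were counted in the longest coding transcript. The 5 genes that were lower in the authors' deposited table held 3 to 4 occurrences each, 1.39 per kb for TAGLN to 2.78 per kb for MYL6. TPM1, TPM4 and MYH9 held 2, 2 and 6 occurrences, or 0.505, 0.750 and 0.794 per kb. TPM2 had none, and ACTA2 had 2, or 1.48 per kb. MYH9, which was not called lower, thus held more occurrences than any of the 5. Over 13948 genes with an adjusted p in the authors' deposited table, 89.0% held the motif, and the median was 0.939 per kb for genes called lower, 0.917 for those not past the threshold and 0.814 for those called higher. The share of genes with the motif ran the other way, 86.0% of those called lower and 94.2% of those called higher, and the Spearman correlation of motif density with the log2 fold change was -0.05 across these genes. Motif density also rose with GC content, at a Spearman correlation of 0.31. Neither table measures methylation, and a motif is a description, not a methylated site.

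The sequence just before the transcription start was searched for the CArG box, the element that SRF binds, on both strands, where it reads alike. Only the strict form CCWWWWWWGG, where W is A or T, was counted. RefSeq sequences (GRCh38.p14) of the 250 bases before a start were found for 7 of the 10 genes, in 11 windows, and not for ACTB, TAGLN and MYL9. Across all 35116 such windows 1.16% held a CArG box. ACTG1 and TPM4 were the 2 contractile genes with 1 in this strict form. Both windows are shown with the box in capitals, beside those of TPM2 and MYH9, the genes that fell most in rRNA-depleted RNA, which hold none.
ACTG1, chr17:81512800-81513049, minus strand: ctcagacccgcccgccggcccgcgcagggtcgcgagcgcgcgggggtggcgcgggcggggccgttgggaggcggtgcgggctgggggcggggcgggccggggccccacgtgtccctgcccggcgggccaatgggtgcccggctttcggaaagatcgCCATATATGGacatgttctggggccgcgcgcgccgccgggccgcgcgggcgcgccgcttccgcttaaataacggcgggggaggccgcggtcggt
TPM4, chr19:16067288-16067537, plus strand: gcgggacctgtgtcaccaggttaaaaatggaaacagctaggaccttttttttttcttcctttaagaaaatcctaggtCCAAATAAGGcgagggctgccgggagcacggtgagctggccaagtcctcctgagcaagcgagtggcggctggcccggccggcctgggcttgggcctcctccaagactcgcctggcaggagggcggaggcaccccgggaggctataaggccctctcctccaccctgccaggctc
TPM2, second of 2 annotated starts, chr9:35689926-35690175, minus strand: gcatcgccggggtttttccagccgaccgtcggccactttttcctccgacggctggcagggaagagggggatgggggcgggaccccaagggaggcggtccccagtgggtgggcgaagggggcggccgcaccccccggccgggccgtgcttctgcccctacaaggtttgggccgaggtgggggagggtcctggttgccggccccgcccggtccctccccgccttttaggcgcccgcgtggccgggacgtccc
MYH9, chr22:36387968-36388217, minus strand: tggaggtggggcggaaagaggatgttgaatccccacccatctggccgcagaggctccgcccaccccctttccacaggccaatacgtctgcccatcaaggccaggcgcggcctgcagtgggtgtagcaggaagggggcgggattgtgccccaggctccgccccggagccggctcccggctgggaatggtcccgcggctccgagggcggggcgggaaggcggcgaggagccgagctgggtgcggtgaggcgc
The ACTG1 box lies 94 to 85 bases before the start and the TPM4 box 173 to 164 bases before the first of 3 annotated starts. A window without the box says only that these letters are absent there. Near matches were not counted. As examples, the window before the second ACTA2 start holds CCCTATATGG and CCTTGTTTGG, each 1 base off the strict form. The window before the second TPM4 start also holds a near match, and others were not searched for.

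The factors that act on that element were measured too. Of the 4 listed, 2 passed in rRNA-depleted RNA, both downward, against 12.4% of all genes. SRF fell in rRNA-depleted RNA, with 132 ± 20.4 TPM in WT (SD, n = 3) and 58.6 ± 2.50 TPM in the others (SD, n = 2), or -1.15 on the log2 scale (SE 0.16, limma adjusted p 0.00636). MRTFA, a cofactor of SRF that senses free actin, fell from 59.4 ± 6.17 to 33.2 ± 0.0171 TPM, or -0.81 on the log2 scale (SE 0.16, limma adjusted p 0.0150). Neither passed with the GC trend removed, at -0.61 and -0.25 (limma adjusted p 0.0583 and 0.357). Neither passed without knockout-labelled library 3, though the changes were then -1.11 and -0.81 (limma adjusted p 0.0809 and 0.0851). The authors' deposited table put MRTFA higher, at 0.27 on the log2 scale (adjusted p 0.0324), while SRF had a mean normalized count of only 7.23 and a log2 fold change of -0.40 (adjusted p 0.581). The cofactors MRTFB and MYOCD, named to complete the list, pointed upward in rRNA-depleted RNA without passing. Their log2 changes were 1.34 and 1.74 (limma adjusted p 0.0732 and 0.0707), with at most 3 reads of MYOCD in a WT library. In the authors' deposited table MRTFB stood at 0.18 and MYOCD at 0.81 (adjusted p 0.485 and 0.107).

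The 62 other genes of the actin cytoskeleton, in 6 groups, give the surroundings of the 10. In rRNA-depleted RNA 58 entered the limma fit, and 26 of these rose and 4 fell, against 22.9% and 12.4% of all genes and 48.8% and 21.0% of those averaging 100 reads or more. With median ratio scaling 16 were higher and 6 lower. Without knockout-labelled library 3, 7 of the 58 passed, and among the genes named below CAPZA1, CFL2, ARPC3, ARPC1A, ACTN4 and RHOA did not pass (limma adjusted p 0.0563 to 0.0992). The authors' deposited table held 59 of the 62, with 4 called higher and 17 called lower, against 9.55% and 10.3% of all genes. Of its genes averaging 200 normalized counts or more, 24.5% passed downward. The median log2 change of these other actin cytoskeleton genes was 0.70 in the rRNA-depleted libraries, 0.29 above the median of all genes, and -0.15 in the authors' deposited table.

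Many genes for proteins that bind, sever or cap actin passed. In the rRNA-depleted libraries 13 of 15 rose and none fell, against 22.9% and 12.4% of all genes. Among genes averaging 100 reads or more, these shares were 48.8% and 21.0%. Their median was 1.12 on the log2 scale, 0.71 above that of all genes, and 9 of 15 rose with median ratio scaling and 2 of 15 without knockout-labelled library 3. CAPZA1, a subunit of the capping protein of filament ends, rose, with 16.5 ± 10.1 TPM in WT (SD, n = 3) and 181 ± 21.5 TPM in the others (SD, n = 2), or 3.54 on the log2 scale (SE 0.51, limma adjusted p 0.00667). CFL2, a cofilin that severs filaments, rose from 5.49 ± 2.26 to 53.9 ± 15.1 TPM, or 3.12 on the log2 scale (SE 0.45, limma adjusted p 0.00651). The WT values stand for only 16, 3 and 10 reads of CAPZA1 and 7, 2 and 8 of CFL2, so both sizes are imprecise. In the authors' deposited table CAPZA1 had a log2 fold change of 0.0068 (adjusted p 0.967) and CFL2 was lower, at -0.29 (adjusted p 5.85e-05). None of the 15 was higher in the authors' deposited table and 6 were lower, against 9.55% and 10.3% of all genes. Of that table's genes averaging 200 normalized counts or more, 24.5% passed downward. TMSB4X, which sequesters actin monomers, had a log2 fold change of -1.01 there (SE 0.13, adjusted p 1.10e-12), and PFN1, profilin, which feeds monomers to growing ends, had -0.48 (SE 0.09, adjusted p 1.32e-06). Both rose in the rRNA-depleted libraries, by 0.70 and 0.69 on the log2 scale (limma adjusted p 0.00762 and 0.00698).

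In the group of the ARP2/3 complex, which branches filaments, and other nucleators, 8 of 13 rose and 1 fell in the rRNA-depleted libraries, against the shares of all genes given above. With median ratio scaling 7 rose and 2 fell, and without knockout-labelled library 3, 3 rose and none fell. ARPC3 rose by 2.57 on the log2 scale (SE 0.32, limma adjusted p 0.00466) and ACTR2 by 2.03 (SE 0.14, limma adjusted p 0.00125), while ARPC1A fell, at -1.13 on the log2 scale (SE 0.16, limma adjusted p 0.00605). ARPC3 had only 9, 7 and 6 reads in the 3 WT libraries, so the size of its rise is imprecise. On the log2 scale, WASL (0.42) and ACTR3 (0.15) were higher in the authors' deposited table, and ARPC3 (-0.53) and ARPC5 (-0.32) lower. ARPC3 thus passed in opposite directions, as ACTG1 did, and so did CFL2, PFN1, TMSB4X and TAGLN2 among the genes named here. Others of the 62 did so too. MRTFA passed lower in rRNA-depleted RNA and higher in poly(A) RNA, while RHOA, WASL and ACTR3 passed upward in both.

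Of the other tropomyosins, calponins and filament binders, 4 of 13 rose in the rRNA-depleted libraries, among them the crosslinker ACTN4 (log2 change 0.71), and TMOD3, which caps the slow end of tropomyosin-coated filaments, fell, at -1.21 on the log2 scale (SE 0.16, limma adjusted p 0.00558). With median ratio scaling none of the 13 rose (ACTN4, limma adjusted p 0.0893), and without knockout-labelled library 3, 1 did, so the count of 4 is near the share of all genes and rests on the scaling and on that library. Of these 13, 6 were lower and none higher in the authors' deposited table, against the shares of all genes given above. Among the lower were FLNA, a crosslinker, at -0.55 on the log2 scale and TAGLN2, a relative of TAGLN, at -0.52. TAGLN2 was also 1 of the 4 that rose in the rRNA-depleted libraries (0.52 on the log2 scale, limma adjusted p 0.0303). CNN1, calponin 1, which marks contractile smooth muscle as TAGLN does and was singled out after its values were seen, had a log2 fold change of -1.44 (SE 0.18, mean normalized count 46.1) in the authors' deposited table and 0.19 on the log2 scale (SE 0.22, limma adjusted p 0.552) in the rRNA-depleted libraries.

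Among 11 tested myosin II subunits and regulators, 1 passed in the rRNA-depleted libraries, against 35.3% of all genes. This was RHOA, the GTPase that switches on contraction. It rose by 0.79 on the log2 scale (SE 0.15, limma adjusted p 0.0143), which was 0.44 (limma adjusted p 0.0603) with median ratio scaling. The authors' deposited table likewise put RHOA higher, at 0.33 on the log2 scale (SE 0.10, adjusted p 0.00889). The regulatory light chains MYL12B and MYL12A were lower in the authors' deposited table, at -0.53 and -0.49 on the log2 scale. Other actin genes were scarce: ACTA1 and ACTBL2 fell below the filter, ACTC1 and ACTG2 did not pass in the rRNA-depleted libraries, and ACTC1, with a mean normalized count of 11.4 and singled out after its values were seen, had a log2 fold change of -3.56 in the authors' deposited table.

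**Figure D5:**
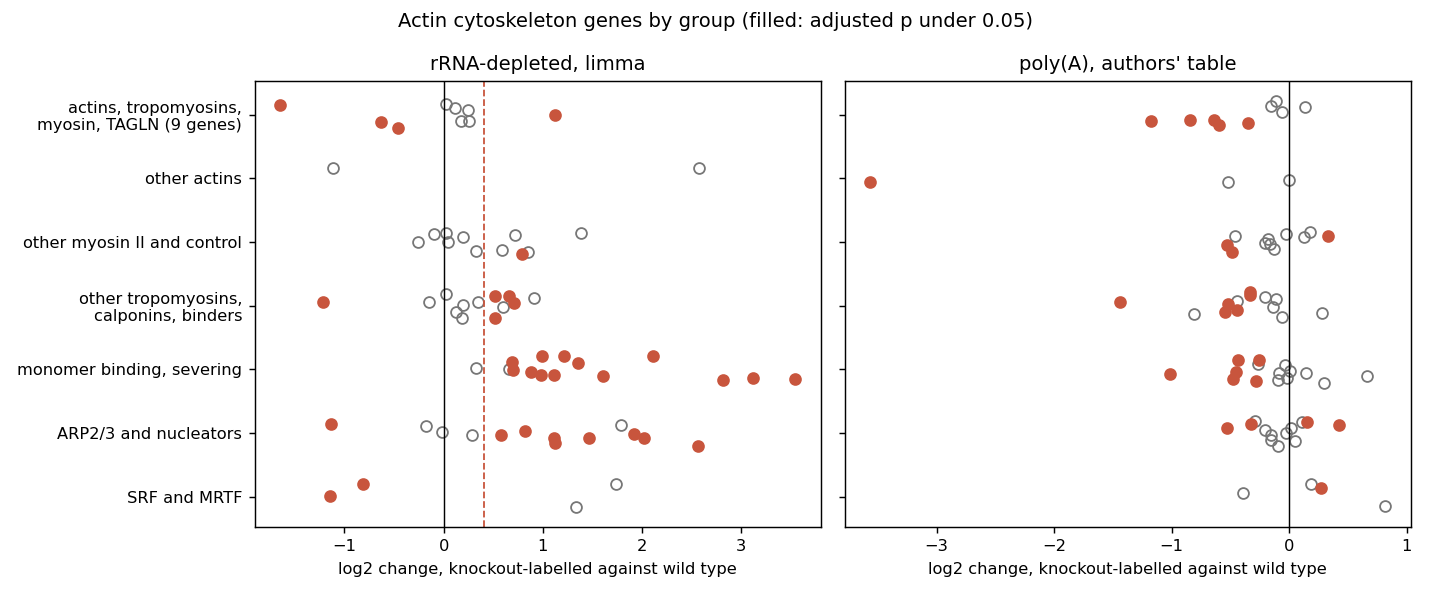
Log2 change, knockout-labelled against wild type, of the contractile genes and of 6 groups of other actin cytoskeleton genes (rows), in rRNA-depleted RNA (left, dashed line at the median of all genes) and in the authors' deposited poly(A) table (right); each point is a gene, filled where its adjusted p is under 0.05. Filled points of the monomer binding and severing group all lie to the right on the left side and to the left on the right side.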

How the data were processed

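TPM for 60669 genes were deposited by the authors for the rRNA-depleted RNA. For the poly(A) RNA 1 comparison was deposited: per the file headers, each gene has a signal (the normalized count averaged over all libraries), the log2 fold change and the error of that estimate, the Wald statistic as a score, and p-values before and after adjustment. It has no value for a single library, so it was not retested. Trimmomatic, STAR, DESeq2 and hg38 are named in the submitters' processing notes, without versions or roles. Counting tool, strand use and annotation are not given in the sources used here.

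Gene lengths (union of exons), positions and transcripts came from GENCODE 29 on GRCh38, which matched 56927 genes. Reads were recovered from TPM times length, and 90.9% of values above 0 were whole to within 0.02 reads. Limma 3.58.1 in R 4.3.3 (lmFit, eBayes with trend) was fitted on log2(TPM + 1), a scale that understates changes of low genes, over the 14789 genes that reached 1 TPM in 3 or more libraries, with Benjamini-Hochberg adjustment over all of them. On simulated reads, this step missed nearly all changes of 1 on the log2 scale, and its false calls were all in genes averaging under 100 reads. Few genes were changed there and all had 1 assumed spread, while 35.3% of genes passed in these data. Neither outcome therefore carries over to this comparison, and a gene that did not pass may still differ. Intervals for the authors' values are the estimate ± 1.96 SE.

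The 10 genes and all lists were chosen with earlier results of these data known. Other genes were named by rule: per list, library type and direction, the 2 with the largest change past the threshold and at least 5 TPM or 50 normalized counts. A gene that this rule names is not reported here. Alternatives covered pseudocount, filter, scaling, GC trend, separate libraries, replicate block, left-out libraries, voom and thresholds.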

Additional observations from a re-analysis of the deposited data

How the results depend on the processing

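Of the 10 genes, 4 passed in the rRNA-depleted comparison, and between 1 and 4 when any 1 library was left out. The count of 1, TPM2 alone, came without knockout-labelled library 3, where the lone remaining sample of that group is assumed to vary like the others. Over the same settings all genes called ranged from 1663 to 5185, against 5220, and other actin cytoskeleton genes from 7 to 33, against 30. At an adjusted p under 0.01, 2242 genes and 19 of the other actin cytoskeleton genes passed, and 1811 genes did in the authors' deposited table. A further threshold of 1 on the absolute log2 scale left 647 genes of the authors' deposited table, 1 of the 10 (TAGLN) and 3 of the other actin cytoskeleton genes.

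Signs turned for small changes. With median ratio scaling the log2 changes were ACTB -0.33, TAGLN -0.18, MYL9 -0.10, TPM1 -0.23 and TPM4 -0.10. With voom on recovered reads they were ACTB -0.26, TAGLN -0.0931, MYL9 -0.0909 and TPM1 -0.12. With the GC trend removed MYL6 was at 0.0106 and TPM1 at -0.16. Without any 1 library ACTB ranged from -0.0354 to 0.0658. The cause of these turns was not tested.

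Replicate numbers did not pair the libraries: deviations of same-numbered libraries correlated at 0.020, -0.020 and 0.008, and not every library correlated best with its own number. With all 6 libraries separate, 5 of the 10 genes passed without a replicate block (TPM4 in addition) and 4 with the replicate block, and all genes called numbered 6880 and 6037. Depth limits ACTA2, at 3 reads or fewer.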
